A study of Mus musculus with 6 samples.

Results

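RNA of 38 genes of sterol and fatty acid synthesis was described in mouse tracheal mesenchyme, in 3 samples collected 48 h post injury (48 hpi) and 3 control samples. The genes were chosen by function, as enzymes, regulators and carriers of these pathways, with earlier results of these data known. Of the 38, 36 could be measured, out of 18193 genes with an assigned probe set. Acat2 and Soat1 had no probe set assigned to them alone and were not analysed here. The 48 hpi samples came from adult male C57Bl/6 mice that had breathed 500 ppm SO2 for 4 h, which kills much of the airway surface epithelium, and the control samples from male mice of the same strain labelled as normal. Each sample pooled the tracheal tissue of 4 mice. The epithelium was peeled off after a protease digestion and all remaining tissue was taken, so that the term mesenchyme covers every cell type left in the tracheal wall. In such bulk RNA, fewer cells of a type and less RNA per cell cannot be told apart. RNA was hybridized to Affymetrix whole-genome mouse arrays, and expression is given as log2 RMA values, on which a difference of 1 is a 2-fold change. Correlations between arrays within a group ran from 0.987 to 0.994.

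Cholesterol is built from acetyl-CoA through mevalonate, isoprenoids and squalene, and fatty acids are built from the same acetyl-CoA by carboxylation, chain extension and desaturation. Both routes are controlled by the SREBP transcription factors, which are held in the endoplasmic reticulum by Scap and the Insig proteins when sterols are plentiful and are released to the nucleus when sterols are low. SREBP2, the product of Srebf2, acts mainly on sterol genes and SREBP1, the product of Srebf1, mainly on fatty acid genes, whereas excess sterol leaves the cell through transporters such as Abca1 and Abcg1.

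Few of these genes changed beyond the spread of the samples at 48 hpi. By the brightest probe set of each gene, the estimated change was above 0 for all 16 measured sterol synthesis enzymes, with a median of 0.15. The change was below 0 for 8 of the 9 fatty acid synthesis and desaturation genes, with a median of -0.32, beside a median of -0.01 over all genes. Of all 18193 genes, 8510 had estimates above 0 and 9683 below 0, and neither group of genes was tested as a set. Other probe sets of some sterol enzymes, such as Mvk, Lss and Hsd17b7, and of Fads1 had estimates below 0, and those of Fads2 above 0. Without control replicate 1, 12 of the 16 sterol enzymes had estimates above 0. A single gene passed the test across all probe sets, Cyp51, which rose 1.77-fold. With the replicate number as a block, which compares samples of the same number, Fdps, Ebp and Abcg1 also rose and Fasn, Me1 and Scd1 fell.

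By limma with Benjamini-Hochberg adjustment, 1 of the 36 genes was called higher at 48 hpi, against 4.97% of all genes, and 0 were called lower, against 1.24% of all genes. At an unadjusted p under 0.05, 5 of the 36 were higher and 6 lower, where the shares over all genes were 14.6% and 9.29%. With the replicate block 4 were called higher and 3 lower, where 8.77% of all genes were called higher and 4.64% lower. All 48 hpi values lay above all control values in 9 of the 36 genes (17.2% of all genes) and below them in 5 (13.1% of all genes). Some of these counts lay below the background share and others above it, and nothing particular to the 36 genes is read from them. The estimated changes of the 36 genes ran between -0.60 and 0.82, whereas those of all genes ran between -2.57 and 6.28.

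**Figure D1:**
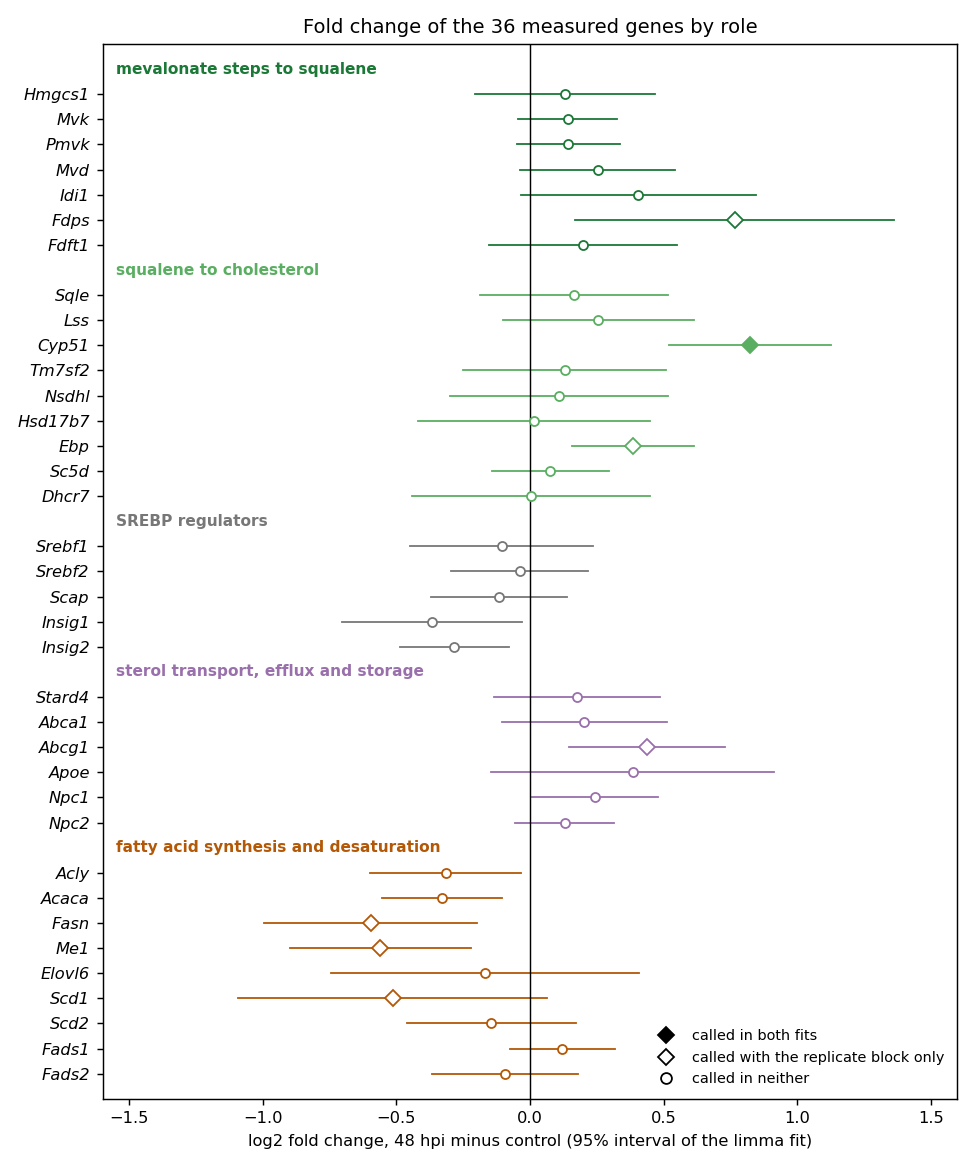
Log2 fold change (48 hpi minus control, horizontal axis) of the 36 measured genes, grouped by role, with the 95% interval of the limma fit. Filled symbols passed an adjusted p of 0.05 in the fit on groups, diamonds passed with the replicate block. Cyp51 at 0.82 is the filled symbol, and Fasn at -0.60 lies lowest.

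Promoter sequences of 29 of the 38 genes were available from RefSeq (build GRCm38.p6), covering 250 bases before and 50 bases after each annotated start. Fdps, Fdft1, Sqle, Stard4, Abcg1, Npc1, Scd1, Scd2 and Fads1 had no entry. The CCAAT box, the letters bound by NF-Y, a factor known to act beside SREBPs, was matched on either strand as CCAAT in 22 of the 29 genes (75.9%), against 41.1% of all 27025 genes in the table and 42% of the genes that were also on the array. A strict sterol regulatory element, TCACNCCAC on either strand, was found in 1 of the 29 genes, Hmgcs1 (3.45%). The share was 1.44% of all genes and 1.46% of those on the array. The E-box CACGTG was found in 6 (20.7%), against 8.09% of all genes and 10.2% of those on the array. Among the measured genes no motif overlapped another kind of motif, and a match describes letters in the window, not a bound site. The 250 bases upstream of the start are shown for 4 genes. These are Cyp51, the gene that passed the test, Ebp and Fasn, which passed with the block in opposite directions, and Hmgcs1. Hmgcs1 is shown for its sterol element and was not called with or without the block. Capitals mark CCAAT or its reverse complement ATTGG and, in Hmgcs1, also the sterol element TCACCCCAC. The positions are chr5:4104698-4104947 (minus strand) for Cyp51, chrX:8193513-8193762 (minus strand) for Ebp, chr13:119690101-119690350 (plus strand) for Hmgcs1 and chr11:120824548-120824797 (minus strand) for Fasn.
Cyp51: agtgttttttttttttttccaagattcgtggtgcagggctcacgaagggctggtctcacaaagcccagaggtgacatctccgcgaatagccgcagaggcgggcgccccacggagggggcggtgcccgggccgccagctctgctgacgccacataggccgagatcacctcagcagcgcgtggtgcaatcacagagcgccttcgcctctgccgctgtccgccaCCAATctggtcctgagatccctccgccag
Ebp: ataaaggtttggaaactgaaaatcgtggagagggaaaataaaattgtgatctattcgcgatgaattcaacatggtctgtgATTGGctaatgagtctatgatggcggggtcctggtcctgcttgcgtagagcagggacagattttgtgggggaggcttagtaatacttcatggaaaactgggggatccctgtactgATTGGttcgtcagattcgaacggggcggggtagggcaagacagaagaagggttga
Hmgcs1: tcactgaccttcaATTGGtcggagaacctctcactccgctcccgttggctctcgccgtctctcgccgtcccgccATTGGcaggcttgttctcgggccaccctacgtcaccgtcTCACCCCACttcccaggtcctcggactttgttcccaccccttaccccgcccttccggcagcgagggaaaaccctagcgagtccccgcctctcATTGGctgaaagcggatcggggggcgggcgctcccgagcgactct
Fasn: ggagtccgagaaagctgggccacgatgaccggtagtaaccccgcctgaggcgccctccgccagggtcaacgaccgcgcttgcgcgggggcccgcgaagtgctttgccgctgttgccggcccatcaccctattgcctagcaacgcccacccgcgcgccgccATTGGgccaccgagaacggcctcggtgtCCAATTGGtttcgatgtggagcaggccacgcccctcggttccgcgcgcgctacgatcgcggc
The sequence of Cyp51 holds 1 CCAAT box, that of Ebp 2, and those of Hmgcs1 and Fasn 3 each, of which a pair in Fasn overlaps on opposite strands. The CCAAT box occurred upstream of genes whose estimates were above 0 and of genes whose estimates were below 0.

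**Figure D2:**
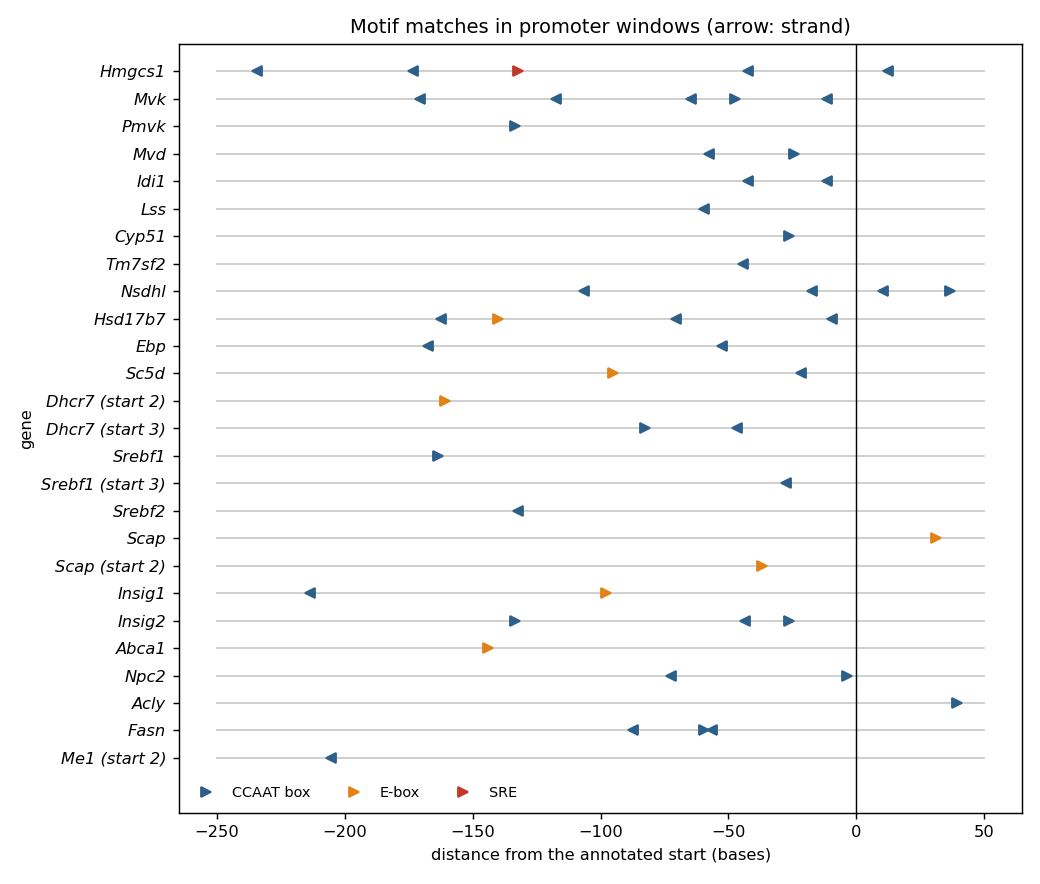
Position of motif matches relative to the annotated start (horizontal axis, bases) for measured genes with a match, 1 line per start site. Arrows give the strand, except for the E-box, which reads the same on both. Matches to the CCAAT box occur in most windows shown and the sterol element in that of Hmgcs1 alone.

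The first steps of sterol synthesis, which carry acetyl-CoA units through mevalonate to squalene, were measured by 7 genes, all with estimates above 0 and a median of 0.20. None was called without the block. Fdps, which makes farnesyl pyrophosphate, the branch point to sterols and prenylated proteins, had the values 7.82, 7.90 and 7.79 at 48 hpi, against 6.48, 7.59 and 7.14 in control. The 48 hpi samples lay close together and above every control sample, and the controls were spread over more than 1 log2 unit with replicate 1 lowest. Fdps differed by 0.77 ± 0.25 (SE; 95% interval 0.17 to 1.36; adjusted p = 0.159), and passed with the block (adjusted p = 0.0447). Without control replicate 1 the difference of Fdps was 0.47.

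Idi1, the isomerase that makes dimethylallyl pyrophosphate, differed by 0.41 (adjusted p = 0.301) and its groups did not overlap. The groups of the kinases Mvk and Pmvk did not overlap either, with differences of 0.14 in each. A second probe set of Mvk differed by -0.08. Hmgcs1, the synthase that makes HMG-CoA, differed by 0.13 and overlapped between groups, as did Mvd, the decarboxylase that makes isopentenyl pyrophosphate, at 0.25, and Fdft1, squalene synthase, at 0.20. A second probe set of Mvd, which gave 0.35, passed with the block (adjusted p = 0.0475).

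From squalene to cholesterol 9 genes were measured, all with estimates above 0 and a median of 0.13. Cyp51, the lanosterol demethylase, had the values 7.24, 7.30 and 7.63 at 48 hpi, against 6.62, 6.66 and 6.42 in control. Every 48 hpi sample lay above every control sample, with replicate 3 the highest at 48 hpi and replicate 3 the lowest in control. The means were 7.39 ± 0.21 at 48 hpi and 6.57 ± 0.13 in control (SD, n = 3 each), a log2 fold change of 0.82 ± 0.13 (SE; 95% interval 0.52 to 1.13; adjusted p = 0.0180, and 0.0138 with the block). A second probe set of Cyp51 differed by 0.97 (adjusted p = 0.0142), and the last, dim one by 0.19 (adjusted p = 0.440). The call of Cyp51 was lost without 48 hpi replicate 3 (adjusted p = 0.0549), without control replicate 2 (0.0524), without control replicate 3 (0.0696), without both samples numbered 1 (0.0530) and by the equal-variance test without moderation (0.119), while the difference stayed between 0.71 and 0.93 under these settings.

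Ebp, the isomerase that moves the double bond of the sterol ring, had the values 9.11, 9.11 and 8.92 at 48 hpi, against 8.58, 8.77 and 8.63 in control. The groups of Ebp did not overlap, and its control replicates spanned less than 0.2. The difference was 0.39 ± 0.10 (SE; 95% interval 0.16 to 0.61; adjusted p = 0.0794), and it passed with the block (adjusted p = 0.0424).

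The other enzymes of this segment overlapped between groups. Lss, which closes the sterol rings, differed by 0.26, and Sqle, which oxidizes squalene, by 0.17. For Tm7sf2 (a sterol reductase) the estimate was 0.13, for Nsdhl (removal of the sterol methyl groups at carbon 4) 0.11, for Sc5d (a desaturase) 0.08, for Hsd17b7 (a ketoreductase) 0.01 and for Dhcr7 (the last step to cholesterol) 0.00. Other probe sets of Lss differed by -0.04 and -0.10, and those of Hsd17b7 by -0.25, -0.05 and 0.13. The 95% interval for Dhcr7 ran between -0.44 and 0.45, so that neither a modest rise nor a modest fall of it was resolved with 3 samples a group.

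The same samples recurred across these enzymes. Of the 16, 11 had their lowest value in control replicate 1 and 13 their highest in a 48 hpi sample, and 12 were higher at 48 hpi in all 3 same-number pairs. The share of all genes with such orders was not computed, and nothing particular to the enzymes is read from these counts. Averaged over the 16 enzymes, the log2 level was 7.60, 7.66 and 7.81 at 48 hpi, against 7.24, 7.51 and 7.56 in control. Control replicate 1 thus stood below the other control samples, by more than the gap between control replicate 3 and 48 hpi replicate 1. Without control replicate 1 the median over the 16 was 0.10, and the change was 0.20 for Idi1, 0.026 for Hmgcs1, 0.055 for Fdft1, 0.051 for Sqle and 0.11 for Lss. Measures of RNA and labelling also differed between the samples. The difference between 5′ and 3′ probe sets of Gapdh was -0.61, -0.49 and -0.96 at 48 hpi, against -1.20, -0.56 and -1.35 in control. The 3′ probe sets of the poly(A) spike controls averaged 7.55, 7.23 and 6.97 at 48 hpi, against 8.17, 7.75 and 7.52 in control, with control replicate 1 the highest. The part of these measures in the values of the sterol and fatty acid genes was not tested.

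**Figure D3:**
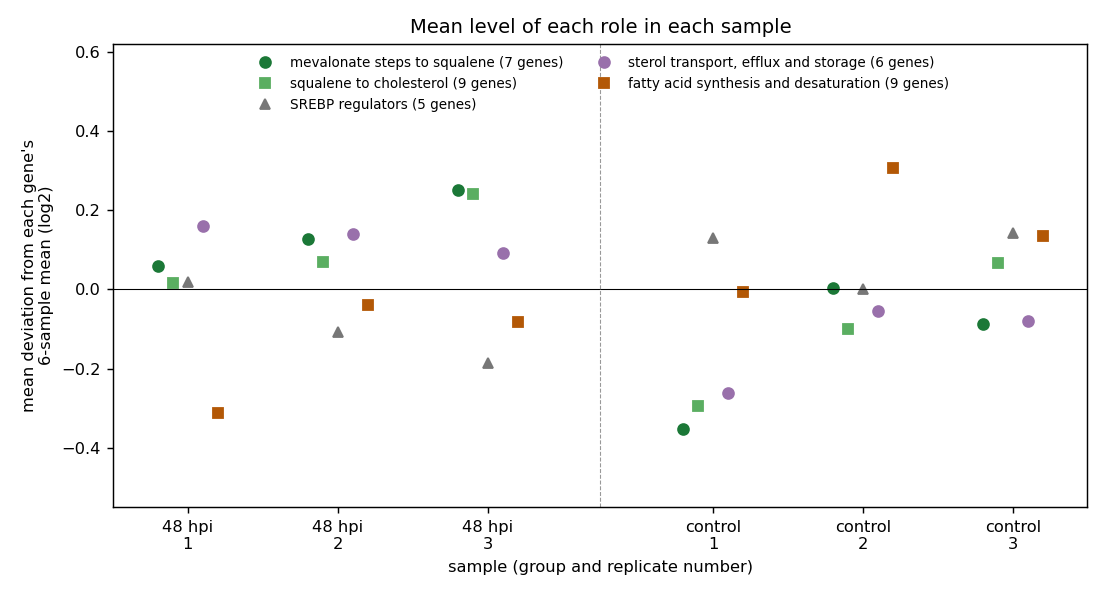
Mean deviation of each role's genes from their own 6-sample means (vertical axis, log2) in each sample (horizontal axis), with 1 symbol per role. In control replicate 1 the mevalonate genes lie at -0.35 and the later sterol genes at -0.29, and in 48 hpi replicate 1 the fatty acid genes lie at -0.31.

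Genes of the SREBP control system were measured by 5 members, none called with or without the block, all with estimates below 0 and a median of -0.12. Srebf2 had the values 7.52, 7.29 and 7.20 at 48 hpi, against 7.47, 7.34 and 7.31 in control, a difference of -0.04 ± 0.11 (SE; 95% interval -0.29 to 0.22; adjusted p = 0.887). A second, dimmer probe set of Srebf2 differed by 0.24 (adjusted p = 0.294), in the opposite direction. Srebf1 had the values 8.81, 8.55 and 8.48 at 48 hpi, against 8.98, 8.53 and 8.65 in control, a difference of -0.11 ± 0.15 (SE; 95% interval -0.45 to 0.24; adjusted p = 0.744). Both genes overlapped between groups and both were highest in the samples numbered 1. These are transcript levels, and the cleavage that activates the SREBP proteins was not measured.

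Scap, the escort of SREBPs, differed by -0.12. Insig1 and Insig2, which hold Scap back, differed by -0.37 (95% interval -0.70 to -0.03; adjusted p = 0.224) and -0.28 (95% interval -0.49 to -0.08; adjusted p = 0.132). The groups of Insig2 did not overlap and those of Insig1 did, and Insig1 differed by -0.23 without control replicate 3.

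Transport, efflux and handling of sterols outside synthesis were measured by 6 genes, all with estimates above 0 and a median of 0.22. Abcg1, an exporter of cholesterol to lipoproteins, had the values 7.15, 6.77 and 7.00 at 48 hpi, against 6.66, 6.54 and 6.41 in control. The groups did not overlap, and 48 hpi replicate 2 lay closest to the control values. Abcg1 differed by 0.44 ± 0.12 (SE; 95% interval 0.15 to 0.73; adjusted p = 0.109) and passed with the block (adjusted p = 0.0405).

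None of the remaining 5 transport genes passed with or without the block. Apoe, the lipoprotein component, differed by 0.38 and was 10.51, 10.56 and 9.83 at 48 hpi, against 9.65, 10.20 and 9.90 in control, so that 48 hpi replicate 3 lay below 2 control samples. Npc1 and Npc2, which move cholesterol out of lysosomes, differed by 0.24 and 0.13, and the groups of Npc2 did not overlap. Abca1, the exporter to apolipoproteins, differed by 0.20, and Stard4, a soluble sterol carrier, by 0.18. A dimmer probe set of Stard4 differed by 0.64 (adjusted p = 0.0534) and passed with the block (adjusted p = 0.0150), so the probe sets of Stard4 were unequal.

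Macrophages handle large amounts of cholesterol and express many of these transport genes, and their markers differed between the groups. Of 12 macrophage and monocyte markers, 11 rose, and their mean log2 level was 9.18 to 9.52 at 48 hpi, against 7.71 to 7.97 in control. Of 9 markers of proliferating cells, 9 rose, with a mean level of 9.08 to 9.44 at 48 hpi, against 6.41 to 6.73 in control. Over all genes 4.97% were called higher. The part of macrophages or of proliferating cells in the values of the sterol genes was not tested.

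The fatty acid genes were measured by 9 members. Fasn, the synthase that builds palmitate, had the values 8.21, 8.66 and 8.43 at 48 hpi, against 8.90, 9.34 and 8.85 in control. The groups did not overlap, and in each group replicate 2 was the highest. Fasn differed by -0.60 ± 0.17 (SE; 95% interval -0.99 to -0.20; adjusted p = 0.109) and passed with the block (adjusted p = 0.0133), where the same-number differences were -0.68, -0.68 and -0.42.

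Me1, malic enzyme, which supplies NADPH to fatty acid synthesis, had the values 9.20, 9.13 and 8.95 at 48 hpi, against 9.88, 9.71 and 9.38 in control. In Me1 the groups did not overlap and each group had its highest value in replicate 1 and its lowest in replicate 3. The difference was -0.56 ± 0.14 (SE; 95% interval -0.90 to -0.22; adjusted p = 0.0856, and 0.0145 with the block). A second, dimmer probe set of Me1 differed by -0.29 and did not pass with the block (adjusted p = 0.103).

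Scd1, which introduces the double bond of oleate, had the values 11.18, 12.01 and 11.85 at 48 hpi, against 11.87, 12.53 and 12.19 in control. Its groups overlapped, since 48 hpi replicate 2 lay above control replicate 1, but the same-number differences of -0.69, -0.52 and -0.34 were all below 0. The difference of Scd1 was -0.51 ± 0.25 (SE; 95% interval -1.09 to 0.07; adjusted p = 0.318), and it passed with the block (adjusted p = 0.0231). Without 48 hpi replicate 1 the difference of Scd1 was -0.27 (adjusted p = 0.583). A second, dimmer probe set of Scd1 differed by -0.40 and did not pass with the block (adjusted p = 0.0873).

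Acly and Acaca, which make acetyl-CoA in the cytosol and carboxylate it, differed by -0.32 (95% interval -0.60 to -0.03; adjusted p = 0.213) and -0.33 (95% interval -0.56 to -0.10; adjusted p = 0.116, and 0.0562 with the block). Neither gene overlapped between groups, and all 6 probe sets of Acly had estimates below 0. Without control replicate 2 Acly differed by -0.21. Elovl6, which lengthens palmitate, differed by -0.17, Scd2 by -0.15 and Fads2 by -0.09, with overlapping groups. Fads1 is the delta-5 desaturase of polyunsaturated fatty acids. By the brightest probe sets it was the 1 gene of this role with an estimate above 0, at 0.12. The groups of Fads1 did not overlap, but its second, dimmer probe set differed by -0.34 (adjusted p = 0.402). Other probe sets of Fads2 differed by 0.28 and 0.02. Of the 9 genes, 8 had their highest value in a control sample and 8 were below 0 in all 3 same-number pairs. As for the sterol enzymes, the share of all genes with such orders was not computed, and nothing particular to the 9 genes is read from these counts.

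**Figure D4:**
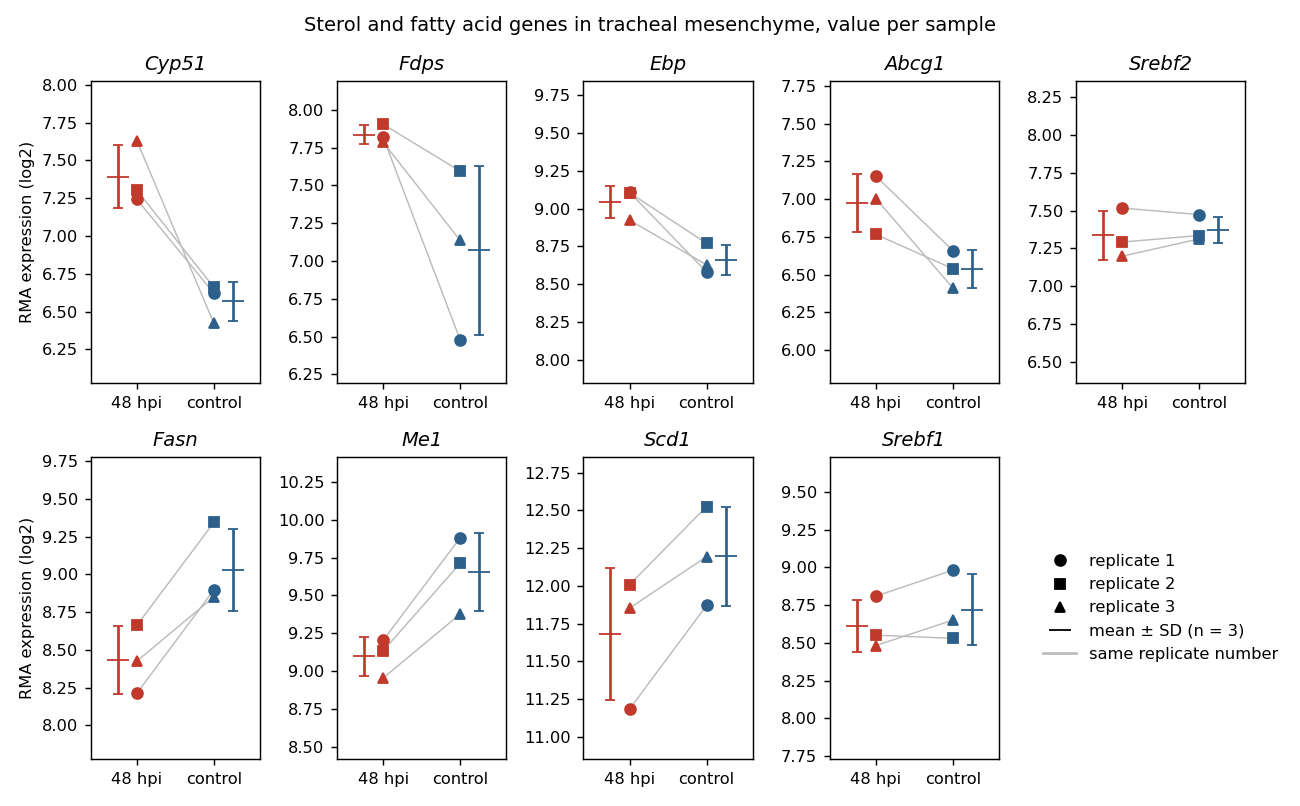
Log2 RMA expression (vertical axis, each panel spanning 2 units) of 9 genes in the 48 hpi and control samples, with symbols for the replicate number, grey lines joining samples of the same number and bars for the mean ± SD (n = 3 each). The groups are apart for Cyp51, Fdps, Ebp, Abcg1, Fasn and Me1 and overlap for Scd1, Srebf1 and Srebf2.

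Adipocytes, which have high Fasn and Scd1 and lie around the trachea, were checked by 9 markers. Their mean log2 level was 7.74 to 8.10 at 48 hpi, against 7.80 to 8.05 in control, and none was called without the block. With the block Adipoq and Cidec were higher at 48 hpi and Cidea lower. Adipoq had the values 10.49, 10.71 and 10.14 at 48 hpi, against 9.99, 10.38 and 9.82 in control. Of the 9 markers 5 had estimates above 0 and 4 below. Of 13 airway epithelial markers 0 were called without the block and 2 were lower with it, with a mean level of 7.96 to 9.34 at 48 hpi, against 8.68 to 9.45 in control. Their estimates were above 0 for 5 and below 0 for 8, and ran between -2.57 for Scgb1a1 and 0.41 for Krt14. The secretory cell product Scgb1a1 had the values 12.31, 9.90 and 8.72 at 48 hpi, against 13.46, 12.69 and 12.50 in control, so epithelial RNA was present in the tissue labelled mesenchyme. The source of this RNA within the tracheal wall was not determined. Of 10 chondrocyte markers 2 fell, and 7 with the block, with a mean level of 10.85 to 11.25 at 48 hpi, against 11.43 to 11.69 in control. Schwann cells make much lipid for myelin, and of 7 Schwann cell and myelin markers 6 had estimates below 0, with a median of -0.34, and their mean level was 7.65 to 7.97 at 48 hpi, against 8.08 to 8.20 in control. S100b fell by 0.57 (adjusted p = 0.0228), and with the block 2 of the 7 were lower, S100b and Mbp, a myelin protein, at -0.66 (adjusted p = 0.0178). Pmp22 and Cdh19 differed by -0.34 and -0.37. Sox10 differed by -0.16, and Gjc3 and Mag, both of low signal, by -0.09 and 0.02, with overlapping groups. The cell type that gave the S100b signal was not determined. Over all genes 4.97% were called higher and 1.24% lower, and 8.77% and 4.64% with the block. The part of the adipocyte, epithelial, cartilage and Schwann cell markers in the values of the fatty acid genes was not tested.

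The arrays fell into 2 sets by the signal of the BioB hybridization controls, of which the brighter held 48 hpi replicate 1 and control replicates 1 and 3. With these sets as a block, an alternative chosen after the data were seen, Fasn differed by -0.73 (adjusted p = 0.0236), Scd1 by -0.72 (adjusted p = 0.0436) and Cyp51 by 0.76 (adjusted p = 0.0338), all 3 called. Me1, Fdps, Ebp and Abcg1 were not called with these sets as a block (adjusted p = 0.137, 0.212, 0.132 and 0.114). Within the brighter and the dimmer set Cyp51 differed by 0.72 and 0.81 and Fasn by -0.66 and -0.80. Scd1 differed by -0.85 in the brighter and -0.59 in the dimmer set, and Me1 by -0.43 and -0.67. Fdps, by contrast, differed by 1.01 in the brighter set, which holds control replicate 1, and by 0.25 in the dimmer one. Ebp differed by 0.50 and 0.24 and Abcg1 by 0.62 and 0.35 in the same order of sets.

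Of the 36 genes, 25 had more than 1 probe set, 83 probe sets in all, and in 15 of the 25 every probe set had the same sign. Of the 83 probe sets, 2 were called higher, both of Cyp51, and 0 lower. With the block 7 were called higher and 3 lower. The shares over all probe sets were not computed. Over all genes 4.97% were called higher and 1.24% lower, and with the block 8.77% and 4.64%. Nothing particular to the 83 probe sets is read from these counts. Each gene was represented by its brightest probe set, and none of the 36 lay under the dim bound of 4.76.

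**Figure D5:**
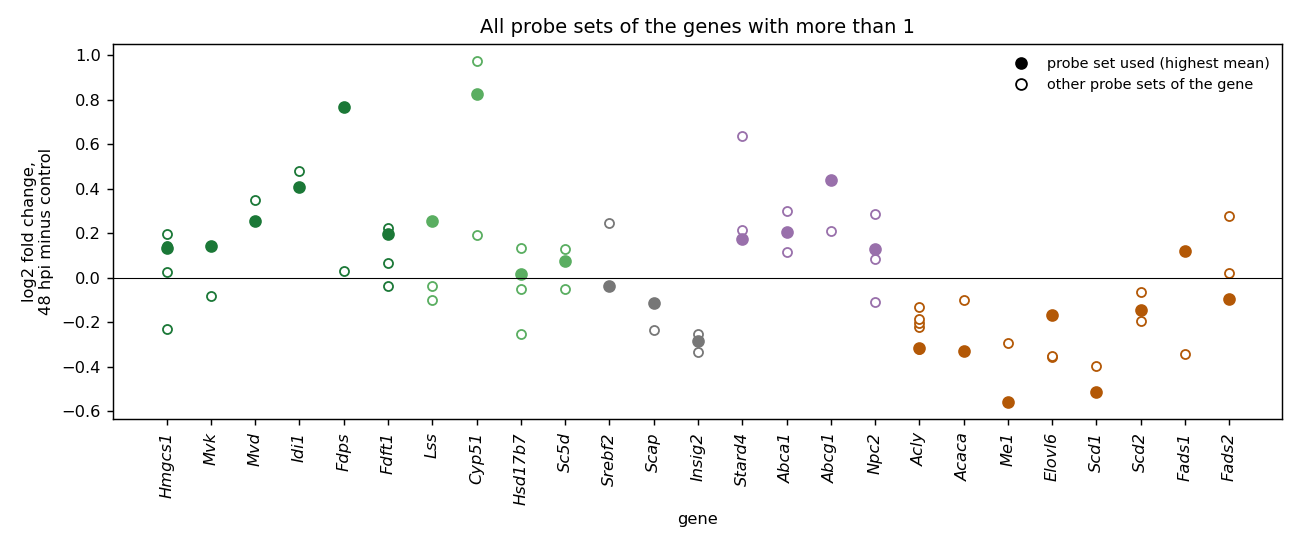
Log2 fold change (48 hpi minus control, vertical axis) of every probe set of the 25 genes with more than 1 (horizontal axis). Filled points are the brightest probe set of each gene, used for its value. For Cyp51 the points lie at 0.82, 0.97 and 0.19, and for Acly all 6 lie below 0.

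Other genes of the same pathways came from lists chosen by function, with earlier results of these data known. They gave 2 calls a list in 3 lists, all higher at 48 hpi, where 4.97% of all genes were called higher and 1.24% lower. Of 12 further sterol and isoprenoid genes, 2 rose and 0 fell, with a median of 0.14. They were Tmem97, a sterol-responsive partner of Npc1, at 0.71 (adjusted p = 0.0197), and Cyb5r3, the reductase that feeds electrons to the sterol and fatty acid oxidases, at 0.46 (adjusted p = 0.0383). Of 20 genes of sterol uptake, trafficking and oxysterols, 2 rose and 0 fell, with a median of 0.01: Lipa, the lysosomal lipase that frees cholesterol from its esters, at 0.62 (adjusted p = 0.0112), and Cyp7b1, an oxysterol hydroxylase, at 0.61 (adjusted p = 0.0422). With the block 3 of the 12 were higher and 1 lower, and 2 of the 20 higher and 2 lower. The shares over all genes with the block were 8.77% and 4.64%, and nothing particular to these lists is read from the counts.

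Of 19 further fatty acid genes, 2 rose and 0 fell, with a median of 0.02. Acsl4, which activates arachidonate, was 9.10, 8.73 and 9.36 at 48 hpi, against 7.99, 7.88 and 8.01 in control, a rise of 2.14-fold (adjusted p = 0.0135). Fads3, a relative of Fads1 and Fads2, was 8.26, 8.08 and 8.36 at 48 hpi, against 7.24, 7.26 and 7.07 in control, a rise of 2.06-fold (adjusted p = 0.00351). In both genes the groups lay far apart, and these differences exceeded those of every one of the 36 genes. With the block 3 of these 19 were higher and 2 lower, against 8.77% and 4.64% of all genes.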

How the data were processed

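The deposited values are log2 expression values of Affymetrix mouse array probe sets, which the authors made by RMA (background correction, quantile normalization and summary of probes). The submitters' processing notes name Affymetrix Expression Console 1.1 and Partek 6.5. They were used as deposited. The table held 45101 probe sets, and 64 Affymetrix controls were left out of the 45037 tested. Gene names came from the platform annotation, updated through Entrez identifiers: 34945 probe sets had 1 gene, 932 several and 9160 none, and only the first were named. No genome build was given for the array in the sources used here, so positions are printed for promoters only. Where a gene had more than 1 probe set (9010 genes), that with the highest mean over all 6 samples was used, and levels of different probe sets were not compared.

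Groups came from the labels, which call the samples biological replicates, and p-values measure the spread between pools of mice. Groups were compared two-sided with limma 3.58.1 (lmFit and eBayes, R 4.3.3; 4 residual and 3.21 prior degrees of freedom), with Benjamini-Hochberg adjustment over all probe sets tested and a threshold of 0.05. The fit was tested on simulated data. No depth exists for arrays, and their number limits the precision. The labels give both groups replicate numbers. Deviations from the group means of same-numbered samples correlated at 0.62, 0.36 and 0.34, all above 0.1, and a fit blocked on that number is given wherever it changes a call. This pairing comes from the values, as the labels do not say that numbers share a day or batch.

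The members and lists were chosen with earlier results of these data known, so that no list was tested as a set. Values in every sample are given for genes called with or without the block and for Srebf1 and Srebf2, other members by their change, and from each other list up to 2 genes in each direction. Apoe, Adipoq and Scgb1a1 were given per sample after their values were seen. Alternatives were the block, leaving out each sample or both samples numbered 1, leaving out dim probe sets (mean under the 40th percentile, 4.76), a second quantile normalization, centring on bright probe sets, a prior variance with an intensity trend, an equal-variance test without moderation, the mean of a gene's probe sets, preference for probe sets without an x or s suffix, and the hybridization control block. Motifs were matched as exact letters on both strands.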

Additional observations from a re-analysis of the deposited data

How the results depend on the processing

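Of the 36 genes, 26 kept the sign of their change under all 16 alternatives. The count of genes in the list called higher was 1, against 4 with the replicate block, 0 by the equal-variance test and 0 without both samples numbered 1 (6 and 5 at an unadjusted p under 0.05), and 0 to 1 when 1 sample was left out, with 0 without 48 hpi replicate 3, control replicate 2 or control replicate 3. The count called lower was 0, against 3 with the replicate block and 2 with the hybridization control block, chosen after the data were seen, and 0 when any 1 sample was left out. Over all genes 904 were called higher and 226 lower. The replicate block gave 1596 higher and 845 lower, the equal-variance test 41 and 4, leaving out both samples numbered 1 gave 413 and 76, the hybridization control block 714 and 131, and leaving out 1 sample 349 to 647 higher and 17 to 98 lower, both lowest without 48 hpi replicate 3. Signs turned for the other 10 genes. When 1 sample was left out, the change ran between -0.018 and 0.30 for Tm7sf2, -0.034 and 0.25 for Nsdhl, -0.13 and 0.17 for Hsd17b7, -0.15 and 0.21 for Dhcr7, -0.20 and 0.024 for Srebf1, -0.13 and 0.031 for Srebf2, and -0.41 and 0.028 for Elovl6. Without both samples numbered 1 it was -0.055 for Hsd17b7 and -0.058 for Dhcr7, after a second quantile normalization -0.031 and -0.047, after centring -0.010 and -0.022, and with the hybridization control block -0.015 and -0.012, with 0.017 for Srebf2. As the mean of all probe sets it was -0.039 for Hsd17b7, 0.10 for Srebf2, -0.11 for Fads1 and 0.067 for Fads2. With probe sets without an x or s suffix it was -0.040 for Lss and -0.25 for Hsd17b7. The cause was not tested. With 3 pools a group, changes under about 0.5 mostly missed the threshold. Larger ones also missed it in the fit on groups, namely Fdps (0.77), Fasn (-0.60), Me1 (-0.56) and Scd1 (-0.51).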

Other observations

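Of 19 genes of triglyceride storage and fatty acid oxidation, 0 were called higher and 0 lower by limma, with a median change of -0.01. The shares over all genes were 4.97% and 1.24%. With the replicate block 2 were higher and 2 lower, against 8.77% and 4.64% of all genes. Ppargc1a, a coactivator of oxidative metabolism, was 5.55, 5.46 and 4.61 at 48 hpi, against 5.86, 5.98 and 5.53 in control (-0.58; adjusted p = 0.274, and 0.0335 with the block). Lpin1, a phosphatidate phosphatase on the way to triglyceride, was 7.62, 7.56 and 7.38 at 48 hpi, against 7.84, 7.97 and 8.22 in control (-0.49; adjusted p = 0.0794, and 0.0571 with the block). The groups of Lpin1 did not overlap, and those of Ppargc1a overlapped at 48 hpi replicate 1. Cpt1a and Cpt2, the carnitine transferases that bring fatty acids into mitochondria, were the genes higher with the block, at 0.42 (adjusted p = 0.0445) and 0.35 (adjusted p = 0.0494), and Dgat2, which completes triglyceride, was lower at -0.49 (adjusted p = 0.0221). Cpt1a, Cpt2 and Dgat2 were named after their values were seen.

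Among fatty acid genes outside the 36, Thrsp, a lipogenic protein of fat and liver, had the values 8.37, 8.68 and 7.12 at 48 hpi, against 8.88, 9.59 and 8.68 in control (-0.99; adjusted p = 0.258, and 0.0213 with the block). Acss2, which makes acetyl-CoA from acetate, had 8.39, 8.13 and 7.95 at 48 hpi, against 8.73, 8.70 and 8.60 in control (-0.52; adjusted p = 0.0693, and 0.0206 with the block). Both were named after their values were seen.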
